A study of Mus musculus with 5 samples.

Results

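The replication-dependent histone genes of the mouse lie in clusters, and RNA polymerase II was measured over the clusters on chromosomes 13 and 3 in brain, kidney, liver, lung and spleen. The members were chosen by position: every 5 kb bin of the 2080 kb that start at 21790001 on chromosome 13 (416 bins) and of the 55 kb that start at 96030001 on chromosome 3 (11 bins). This gave 427 of the bins of the genome, where 502038 bins held at least 1 read. The rule itself uses positions and no read count, but the windows were proposed with earlier results of these data known. The windows were set in mouse assembly mm9. The sources used here do not state the build of the deposited files, and the last read start on chromosome 7, at position 152524509, lay past the last gene of that chromosome in a GRCm38 gene table. The positions of that table were therefore not used. Bins are named by deposited position, and no gene name was attached to any bin.

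All 5 groups were freshly dissected tissue of adult FVB mice, an inbred strain, with no treatment or genotype named in the labels, and about 1 g of tissue went into each preparation. Sex, exact age and the number of animals per library are not given. Each group was 1 library of chromatin immunoprecipitation followed by sequencing (ChIP-seq) with an Abcam antibody against RNA polymerase II, the enzyme that transcribes protein-coding genes. With 1 library per tissue there was no replicate and no test, and every interval below is a 95% interval of counting error alone, which treats each read as an independent molecule. Libraries held 10292262 to 14964934 reads. The tissue labels were not checked against marker genes here.

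Histones are the proteins that DNA is wound around. H2A, H2B, H3 and H4 form the core of the nucleosome and H1 binds the linker DNA. The replication-dependent copies are short genes without introns, transcribed mainly in S phase, when the cyclin-dependent kinase target NPAT activates them, and their messenger RNA ends in a stem-loop in place of a poly(A) tail. They are a common mark of dividing cells, while some copies are also known to give polyadenylated RNA in cells that have stopped dividing. In whole tissue, more dividing cells and more polymerase per cell cannot be told apart.

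The RefSeq gene table for GRCm38 listed 64 such protein-coding genes on chromosomes 13 and 3, among them the testis forms H1f6, H2ac1 and H2bc1. Of these, 54 lay on chromosome 13 in 2 blocks of 23 and 31 genes and 10 lay on chromosome 3. The first block held 1 H1, 7 H2A, 8 H2B, 2 H3 and 5 H4 genes, the second 5 H1, 6 H2A, 7 H2B, 7 H3 and 6 H4 genes, and chromosome 3 held 4 H2A, 2 H2B, 3 H3 and 1 H4 gene. Between the blocks on chromosome 13 stood 147 other genes, 75 of them vomeronasal receptor genes, which encode pheromone receptors. The median histone gene was 492.5 bp long, so 1 bin can hold several. The chromosome 13 cluster also held 77 transfer RNA genes, which RNA polymerase III transcribes, and 50 other protein-coding genes, so a bin with polymerase is not by that fact a histone gene.

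The sequences below show what start sites in such clusters look like, because starts that lie so close can fall in 1 bin of 5 kb. RefSeq promoters (GRCm38.p6) were found for 59 of the 64 genes, with 60 promoters in all. In 10 pairs an H2A and an H2B gene started on opposite strands, pointing away from each other, with 163 to 280 bases between the starts (median 203.5). The first run is all 228 bases between the starts of H2bc13 and H2ac13, the first listed pair, and the other runs are the 120 bases before the start of the first listed H1, H3 and H4 gene of chromosome 13. Each is written 5′ to 3′, on the strand of H2ac13 or of the gene named. Capitals mark 4 motifs searched on both strands: TATAAA (the TATA box), CCAAT (the CCAAT box), ATTTGCAT (the octamer that OCT1 binds) and AAACACA (an element known from H1 promoters).
H2bc13 to H2ac13: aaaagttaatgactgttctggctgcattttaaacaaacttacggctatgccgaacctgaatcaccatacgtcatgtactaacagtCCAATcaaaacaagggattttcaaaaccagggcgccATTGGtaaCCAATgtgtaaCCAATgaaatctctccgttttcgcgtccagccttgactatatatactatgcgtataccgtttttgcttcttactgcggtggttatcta
H1f5: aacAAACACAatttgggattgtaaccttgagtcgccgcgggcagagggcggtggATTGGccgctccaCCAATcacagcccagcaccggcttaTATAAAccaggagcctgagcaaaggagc
H3c10: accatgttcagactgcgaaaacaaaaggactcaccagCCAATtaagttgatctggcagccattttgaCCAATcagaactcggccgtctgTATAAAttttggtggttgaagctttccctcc
H4c11: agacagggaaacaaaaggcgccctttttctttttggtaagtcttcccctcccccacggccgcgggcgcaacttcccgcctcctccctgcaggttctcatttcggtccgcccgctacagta

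The motifs were searched separately, so matches can overlap, in 250 bases before and 50 after each start. CCAAT was found in 52 of the 60 histone promoters (86.7%), against 37.4% of all 32851 promoters of the same length in the table. It stood in every listed H1, H2A, H2B and H3 promoter and in 3 of 11 H4 promoters. TATAAA was found in 34 of the 60 (56.7%, against 13.6% of all). ATTTGCAT was found in 7 of 16 H2B and 6 of 17 H2A promoters and in 1.74% of all, and pairs share sequence, so these are not separate matches. AAACACA stood in 5 of 6 H1 promoters, against 7.18% of all. The listed H4c11 sequence holds none of these motifs in the bases shown.

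Polymerase reads in the windows were gathered in a few sharp places in every tissue, and most of the sequence was at background. Of the 427 bins, 64 held a deposited peak in at least 1 tissue and 33 held one in all 5. The authors' lists gave 70 peaks in lung, 69 in spleen, 64 in brain, 59 in liver and 55 in kidney. Bins with a peak numbered 52 in lung, 47 in brain, 46 in spleen, 44 in kidney and 42 in liver, of the 405 with any read. Genome-wide, 10.5% of bins held a peak in brain, 9.07% did in kidney, 8.86% in lung, 6.74% in liver and 5.15% in spleen. The window on chromosome 3 was dense, with 182 peaks per Mb in brain, kidney and liver, 218 in lung and 200 in spleen. The density on chromosome 13 ran from 21.6 per Mb in kidney to 27.9 in lung and spleen. Genome-wide it ran from 12.6 per Mb in spleen to 36.5 in brain.

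**Figure D1:**
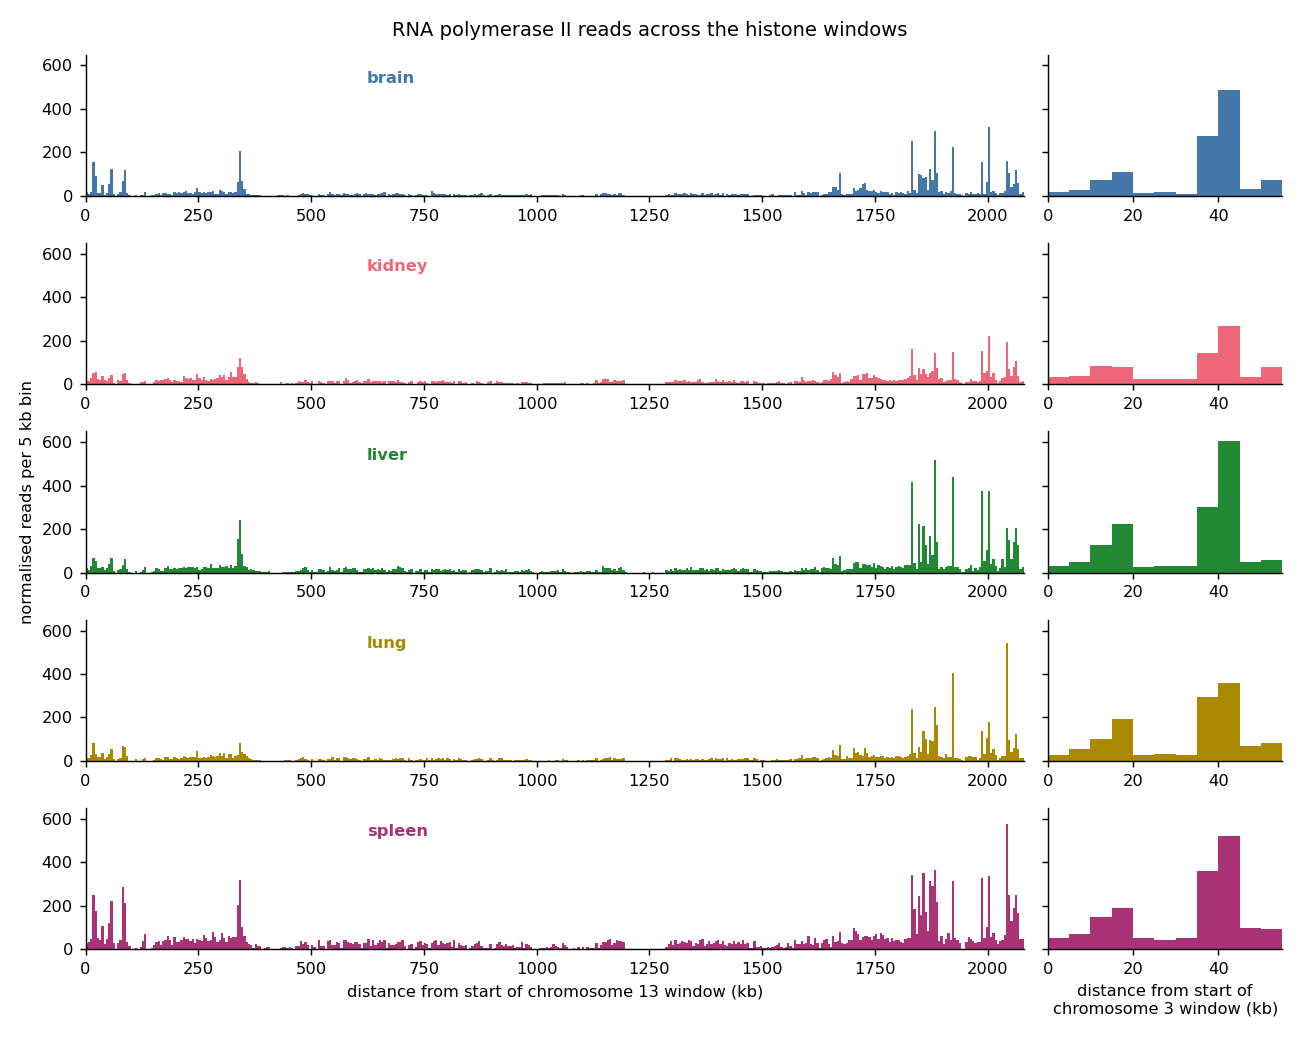
Normalised reads (vertical axis) in 5 kb bins along the window on chromosome 13 (left) and on chromosome 3 (right), 1 row per library; the horizontal axis is the distance from the window's start in kb. The same places stand out in all 5 libraries, and the middle of the chromosome 13 window is at background in each.

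The same positions carried peaks across tissues far more often than regions of the genome do. Peaks were widened by 250 bp each way and joined across libraries where they overlapped, which gave 103 regions in the histone windows. Of these, 35 (33.98%) had a peak in all 5 tissues, against a background of 4.64% of 186413 regions genome-wide. Another 35 had a peak in 1 tissue alone (also 33.98%, against 66.3%). Of the regions with a spleen peak, 50.7% had one in all tissues (28.7% genome-wide), and of those with a kidney peak 67.3% did (11.8%). The share was 56.5% for brain (10.3%), 59.3% for liver (16.4%) and 51.5% for lung (13.1%). In 31 regions with exactly 1 peak per tissue, the 5 peak positions lay within 40 to 730 bp of each other, with a median of 120 bp (155 bp over 6277 such regions genome-wide).

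The peak bins formed 6 stretches when bins were joined over gaps of up to 50 kb, a rule set after the data were seen. Stretches 1 to 5 lie on chromosome 13, from 21805001 to 21925000, 22005001 to 22145000, 23440001 to 23540000, 23620001 to 23715000 and 23775001 to 23860000. Stretch 6 lies on chromosome 3 and takes up 50 kb from 96035001. Between stretches 2 and 3, a span of 1301 kb from 22142951 to 23444286 held no peak in any tissue. There the median bin held 14 reads in spleen, 12 in liver, 10 in kidney, 7 in lung and 5 in brain, which is 0.357 to 0.560 times the genome-wide median bin of the same library. The highest bin of this span held 40 reads in spleen and 36 in kidney, with 33 in liver, 30 in lung and 22 in brain. The gene table likewise has its 2 histone blocks on chromosome 13 apart, but positions were not matched between builds.

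Within each library, peak bins were set against the rest of the windows. Peak bins were picked by the peak lists of these same libraries. A ratio above 1 follows from that choice, which the intervals do not cover, and the values only describe its size. In brain, the 64 peak bins held a mean of 86.9 reads and the 341 other bins 8.06, a ratio of 10.8 (10.3 to 11.3). The ratio was 9.29 in lung (8.92 to 9.68; 98.0 against 10.6 reads), 8.61 in liver (8.32 to 8.91; 135 against 15.7), 6.04 in spleen (5.83 to 6.25; 108 against 17.8) and 5.30 in kidney (5.08 to 5.52; 71.0 against 13.4). The same ratio over the whole genome was 3.53 in brain, 3.28 in lung, 2.87 in liver, 1.89 in spleen and 3.15 in kidney. Kidney thus had the lowest ratio in the windows, although its ratio over the genome lay above those of liver and spleen. Spleen had the lowest ratio over the genome. The window bins without a peak lay, on average, below the genome-wide median bin without a peak in every library. They held 0.672 times that median in brain, the lowest value, and 0.776 times in spleen, the highest. How far these low bins raised the ratios in the windows was not tested. Peak bins include those with a peak in 1 tissue, so this ratio in a tissue also counts places where that tissue had none.

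As a share of the whole library, the windows took 977 RPM (reads scaled to the library total) in spleen (961 to 994), 937 in liver (922 to 953), 910.1 in lung (892 to 928), 808 in brain (790 to 825) and 661 in kidney (647 to 674). The intervals of liver and lung overlapped, and that of kidney lay below all others. Reads above the level of the bins without a peak made up 60.7% of window reads in brain, 56.7% in lung, 54.6% in liver, 44.3% in spleen and 40.4% in kidney. As RPM these excess reads came to 516 in lung, 511 in liver, 490 in brain, 433 in spleen and 267 in kidney. On this scale lung, liver and brain lay close together and kidney was lowest.

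How spleen ranked depended on the scaling, and kidney was lowest under both. Normalised reads are counts divided by a factor per library, the median of ratios over 8222 regions in which no library had under 20 reads: 1.16 in liver, 1.13 in lung, 1.08 in kidney, 1.03 in brain and 0.666 in spleen. With these factors the excess was 8635 normalised reads in spleen, 6592 in liver, 4971 in lung, 4920 in brain and 3397 in kidney. The factor from total reads relative to this one differed by 0.67 in spleen on the log2 scale, -0.38 in lung, -0.32 in brain, 0.04 in liver and 0.02 in kidney. The bins without a peak in the windows held 26.8 normalised reads on average in spleen, against 13.5 in liver, 12.4 in kidney, 9.37 in lung and 7.86 in brain. The values with background subtracted are given with the common regions below.

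**Figure D2:**
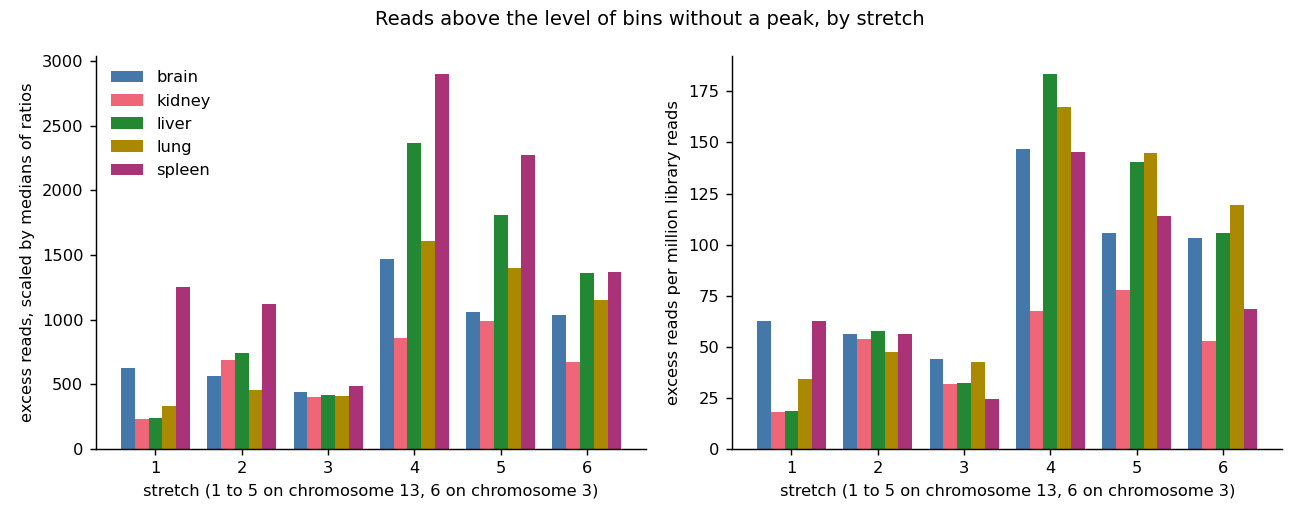
Reads above the mean of window bins without a peak (vertical axes) in each of the 6 stretches, by library; left, divided by the factors from medians of ratios, right, as reads per library total (RPM). On the left spleen is the highest bar in stretches 1 to 5 and level with liver in stretch 6; on the right liver leads stretch 4, lung stretches 5 and 6, and kidney is lowest in stretches 1, 4, 5 and 6.

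The 6 stretches did not share out the reads alike. Stretch 4 held the largest part of each library's excess over the stretches except in kidney: 28.3% in brain, 34.1% in liver, 30.1% in lung and 30.8% in spleen, against 22.4% in kidney, where stretch 5 held 25.8%. Stretch 1 set brain and spleen apart from the others. It held 13.3% of the spleen excess and 12.1% of the brain excess, but 6.15% in lung, 6.02% in kidney and 3.48% in liver. As RPM, its excess was 62.6 in brain and 62.7 in spleen, 34.1 in lung, 18.7 in liver and 18.1 in kidney. Its density over the bins without a peak was 4.81 in brain (4.44 to 5.20), 3.22 in spleen (3.03 to 3.43), 2.67 in lung (2.45 to 2.92), 1.89 in kidney (1.72 to 2.07) and 1.85 in liver (1.70 to 2.01). Liver, which was high in stretches 4 and 5, thus lay with kidney at the low end in stretch 1.

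In stretch 2 the libraries lay close together in RPM, and lung was lowest. The excess was 57.6 RPM in liver, 56.3 in spleen, 56.0 in brain, 53.7 in kidney and 47.4 in lung. In stretch 3 the excess ran from 24.5 RPM in spleen to 43.8 in brain, with 1 region common to all tissues. It lay above that of stretch 1 in lung (42.5 RPM), liver (32.2) and kidney (31.5) and below it in brain and spleen. In stretch 6, on chromosome 3, the excess was 119 RPM in lung, 106 in liver, 103 in brain, 68.5 in spleen and 52.7 in kidney. There, density was 14.2 times that of the bins without a peak in brain (13.2 to 15.2) and 13.3 times in lung (12.5 to 14.1). It was 11.1 in liver (10.5 to 11.7), 6.42 for kidney (5.96 to 6.91) and 6.10 for spleen (5.71 to 6.51). The last 2 intervals overlapped. The bins without a peak are pooled over both windows here, and nearly all lie on chromosome 13. On chromosome 3 alone, the ratio of peak bins to the other bins was 10.3 in brain, 6.62 in liver and 5.23 in lung. It was 3.60 in spleen and 3.28 in kidney. Lung thus lay below liver on that measure, and the intervals above do not cover the choice of background.

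At the level of single bins, few bins were high by a fixed rule, and many of these were high in every tissue. A bin was called high at 3 times the genome-wide median bin of its library and at least 20 reads. Of 405 bins with reads, 38 were high in brain (background 10.8% of bins genome-wide), 37 in lung (7.33%), 31 in spleen (1.01%), 30 in liver (4.61%) and 25 in kidney (8.04%). As shares of the 405 bins these are 9.38%, 9.14%, 7.65%, 7.41% and 6.17%. The shares in brain and kidney lay below the background, those in liver and lung somewhat above it, and that in spleen well above it. High in all 5 tissues were 18 bins, against 0.625% of bins genome-wide.

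The bin with the most reads lay on chromosome 3 from 96070001 to 96075000. It held 704 reads in liver, 501 in brain, 406 in lung, 346 in spleen and 290 in kidney. After normalisation liver (606) was 2.27-fold over kidney (1.98 to 2.61), and spleen (519) and brain (488) lay between. On chromosome 13, the bin from 23670001 to 23675000 had the largest liver count of its window, 600, with 305 in brain, 279 in lung, 242 in spleen and 154 in kidney. Liver was 3.64-fold over kidney there (3.04 to 4.37) and 1.42-fold over spleen, the next tissue (1.22 to 1.66). Among the 12 bins with the most normalised reads, liver was highest in 7 and spleen in 5, and kidney was lowest in 8, lung in 3 and brain in 1. With total reads, liver and lung were each highest in 4, brain in 3 and spleen in 1. The same counts over the strongest bins of the genome were not computed, so these describe the 12 bins alone.

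One of these 12 bins departed from that order. From 23830001 to 23835000, lung held 612 reads, its highest bin in either window, spleen 384, liver 240, kidney 209 and brain 164. Normalised reads were 576 in spleen and 543 in lung, not separated by counting error (ratio 1.06, 0.931 to 1.21), and 207 in liver, 193 in kidney and 160 in brain. Spleen was 3.60-fold over brain (2.99 to 4.35). With total reads lung led spleen by 1.95-fold. Here liver, high in most of the 12 bins, stood with kidney and brain. A bin at the end of stretch 4, from 23710001 to 23715000, was also high in lung, with 454 reads against 511 in liver, 233 in brain, 209 in spleen and 159 in kidney.

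Bins led by 1 tissue were all led by spleen after normalisation. A tissue led a bin when it had 20 or more reads there and its normalised count was 2-fold or more above that of the next tissue, where a count below 3 was taken as 3. No bin of the windows was led by brain, kidney, liver or lung, against backgrounds of 2.04%, 2.28%, 3.13% and 0.444% of peak bins genome-wide and 1.04%, 0.849%, 1.00% and 0.202% of all bins. These zeros lie near the backgrounds and are no result about the windows. Spleen led 9 of the 63 peak bins in which it had at least 20 reads, 14.3% where the background was 7.41%. Over all bins spleen led 76 of 210, 36.2% with a background of 23.0%, most of them without a peak in any list. With total reads spleen led 7 bins, 1 of them with a peak (background 0.575%), and liver led 1 peak bin (3.79%). Brain (9.18%), kidney (2.69%) and lung (1.83%) led none.

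The bin with a peak in which spleen led by both scalings lay in stretch 4, from 23625001 to 23630000. It held 124 reads in spleen, 53 in liver, 47 in kidney, 39 in lung and 30 in brain. The fold over the next tissue was 4.08 (2.93 to 5.73), and 2.60 with total reads. The bin with the largest spleen fold lay in stretch 1, from 21870001 to 21875000, with 192 reads in spleen, 79 in lung, 69 in brain, 53 in kidney and 41 in liver, 4.11-fold over lung (3.14 to 5.41) and 1.98-fold with total reads. A bin beside the first, from 23630001 to 23635000, held 47 spleen reads and 14 to 19 elsewhere with no peak in any list, 4.03-fold (2.32 to 7.26), and 2.40-fold with total reads. These bins were picked for a large fold, and their intervals do not cover that choice.

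In the other tissues the bins picked in the same way led by little. The brain bin with the largest fold, from 23460001 to 23465000 in stretch 3, held 106 reads in brain, 91 in liver, 81 in lung, 58 in kidney and 52 in spleen, 1.32-fold over liver (0.987 to 1.76). The largest kidney fold was 1.09 over spleen (0.708 to 1.70), from 22110001 to 22115000. The largest lung fold was 1.01 over liver (0.783 to 1.31), from 23785001 to 23790000. The largest liver fold was the 1.42 already given. A liver bin next in line, from 23820001 to 23825000, held 70 liver reads, 30 in kidney and 14 to 29 elsewhere, 1.39-fold over spleen (0.887 to 2.22), and was the bin that liver led with total reads, at 2.14-fold. The intervals of these leads included 1, apart from that of the liver bin with 600 reads.

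At the 35 regions that all 5 peak lists shared, spleen and liver held the most reads after normalisation and kidney the fewest. The median was 119 normalised reads in spleen (27.0 to 276 from the lowest region to the highest), 99.9 in liver (19.8 to 411), 66.3 in brain (16.6 to 315), 48.8 in lung (9.77 to 296) and 38.7 in kidney (14.8 to 164). Over all 8641 regions common to the 5 tissues the medians were close, 46.5 in liver, 45.3 in lung, 43.9 in brain, 42.4 in kidney and 42.0 in spleen. The factors were set on regions with 20 or more reads in every library, so medians this close follow largely from the scaling. With total reads these medians ran from 26.4 in spleen to 58.8 in lung. The histone-window regions thus held more reads than the median common region in spleen, liver, brain and lung and somewhat fewer in kidney.

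**Figure D3:**
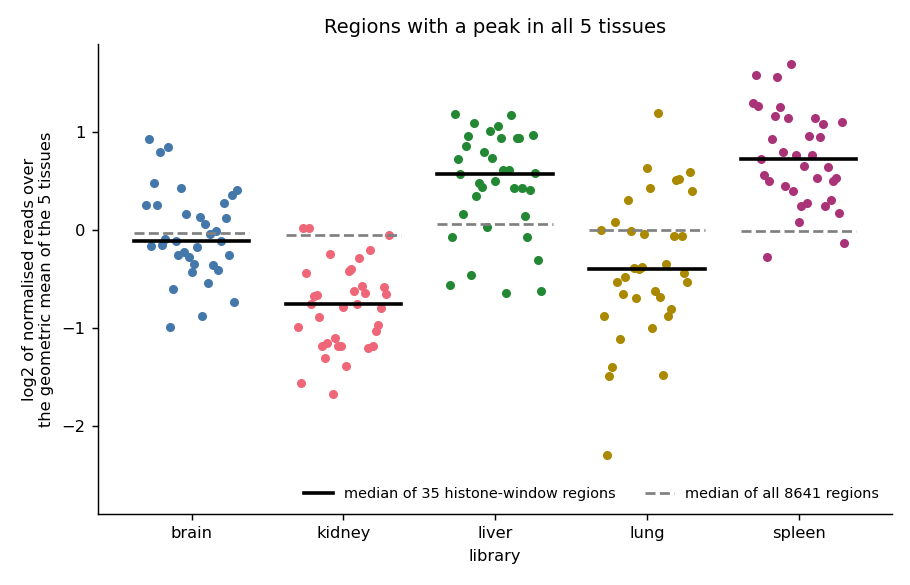
For each of the 35 regions shared by all 5 peak lists (points), the log2 of its normalised reads in a library over the geometric mean of the 5 libraries (vertical axis), by library (horizontal axis); black lines are medians of these regions and dashed lines medians of all 8641 such regions. Spleen and liver points lie mostly above 0 and kidney points nearly all below.

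Relative to the mean of the 5 libraries, the histone-window regions were high in spleen and liver and low in kidney and lung after normalisation. The median log2 difference from the geometric mean was 0.73 in spleen, 0.57 in liver, -0.11 in brain, -0.39 in lung and -0.76 in kidney. Set against the median of all common regions in the same library, which takes out any factor per library, the differences were 0.74, 0.51, -0.08, -0.39 and -0.71 in that order and are the same under both scalings. After normalisation, spleen lay above the mean of the 5 in 33 of the 35 regions, liver in 28, brain in 14, lung in 9 and kidney in 2. Of all common regions, 44.6% to 54.8% did so in each library. These counts moved with the scaling. With total reads they were 27 in liver (background 52.2%), 26 in brain (74.2%), 18 in spleen (6.82%), 16 in lung (80.0%) and 2 in kidney (43.2%).

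Spleen was the highest library in 19 of the 35 regions (background 18.2% of common regions), liver in 11 (29.6%), lung in 3 (21.2%), brain in 2 (18.2%) and kidney in none (12.8%). Kidney was the lowest in 22 (19.8%), lung in 9 (19.8%), brain in 3 (21.4%), liver in 1 (20.2%) and spleen in none (18.8%). The lead moved with the scaling. With total reads, liver was highest in 19 (20%), brain in 7 (30.9%), lung in 7 (39.7%), spleen in 2 (2.27%) and kidney in none (7.09%). Kidney was still the lowest in 25 (9.67%), lung in 6 (2.5%), spleen in 3 (69.0%), liver in 1 (13.2%) and brain in none (5.6%). With the genome-wide background of each library subtracted, the median log2 difference from all common regions was 0.85 in spleen, 0.51 in liver, -0.12 in brain, -0.42 in lung and -0.76 in kidney. Without that subtraction the spleen difference was 0.74, and the part of background in it was not tested.

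Pair by pair, kidney was below spleen in 34 of the 35 regions and below liver in 33. The median ratio was 2.86 for spleen over kidney and 2.52 for liver over kidney, and the interval of the ratio lay above 1 in 31 and 29 regions. Brain was above kidney in 29 regions, with a median ratio of 1.63. Lung was above kidney in 26, at 1.37, with 14 intervals above 1 and 5 below. Spleen and liver did not separate with the factors from medians of ratios. Spleen was higher in 22 and liver in 13, and the median ratio of spleen over liver was 1.06. Of the intervals, 9 favoured spleen and 7 liver. With total reads, liver was the highest library in 19 of the 35 regions and spleen in 2. The median region then held 96.9 scaled reads in liver and 74.4 in spleen, so the order of these libraries depended on the scaling. All counts and ratios of pairs use the factors from medians of ratios. They were not computed over all common regions or with total reads, so they describe the 35 regions alone. The regions of a stretch are neighbours and not independent of each other.

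The region with the most reads, on chromosome 3 from 96073351 to 96073921, held 426 reads in liver, 323 in brain, 191 in lung, 184 in spleen and 178 in kidney. It was 2.24-fold higher in liver than in kidney (1.87 to 2.68). Next came chromosome 13 from 23673261 to 23673861, with 477 reads in liver, 233 in brain, 178 in spleen, 176 in lung and 97 in kidney. Liver there was 4.59-fold over kidney (3.69 to 5.78) and 1.54-fold over spleen (1.29 to 1.84). In both, liver led after normalisation and kidney was last, while with total reads brain led the first. From 23789936 to 23790476, liver held 381 reads, brain 241, kidney 176, spleen 173 and lung 157. There lung was lowest, 2.35-fold below liver (1.95 to 2.85), but with total reads kidney was. In the region from 23622786 to 23623341, liver with 325 reads was 2.89-fold over kidney with 105 (2.31 to 3.64).

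A further region of chromosome 3, from 96066836 to 96067426, was lowest in kidney by both scalings. It held 232 reads in liver, 168 in brain, 162 in lung, 141 in spleen and 83 in kidney, and normalised reads were 212 in spleen, 199.8 in liver, 164 in brain, 144 in lung and 76.5 in kidney. With total reads brain was highest there. The region from 23831286 to 23832001 is the centre of the bin that was high in lung. It held 333 reads in lung, 168 in spleen, 96 in liver, 91 in kidney and 72 in brain, with lung 4.21-fold over brain (3.26 to 5.52) and not separated from spleen (1.17, 0.972 to 1.42). A pair of neighbouring regions in stretch 4 differed in their leader. From 23712821 to 23713821, lung (206 reads) and liver (193) were level after normalisation (1.10, 0.900 to 1.35). From 23713921 to 23714681, liver (252 reads) was 1.55-fold over lung (1.26 to 1.9) and 5.47-fold over kidney (3.95 to 7.75).

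In the next 3 regions by reads, liver and spleen were the libraries with the most normalised reads. From 23775891 to 23776511, liver held 218 reads, spleen 102, brain 89, kidney 79 and lung 55, and liver was 3.84-fold over lung (2.85 to 5.27). From 23636081 to 23636651, liver held 178 reads, spleen 100, brain 76, kidney 54 and lung 41. Liver and spleen were level there (1.02, 0.795 to 1.32). From 23662956 to 23663716, spleen with 104 reads was 7.05-fold over kidney with 24 (4.49 to 11.5), with 142 reads in liver, 97 in brain and 49 in lung. With total reads liver led that region. The fourth, on chromosome 3 from 96048966 to 96049546, differed: lung held 125 reads, liver 100, spleen 81, brain 74 and kidney 37. Spleen and lung were level there after normalisation (1.09, 0.817 to 1.46), lung led with total reads, and kidney was lowest by both.

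By stretch, the order of the libraries at the common regions differed, and in part from that of the totals. Both common regions of stretch 1 were highest in spleen and lowest in kidney, and brain was second in both. With total reads brain led 1 of them. In the 1 from 21845401 to 21846151, normalised reads were 147 in spleen, 93.6 in brain, 46.5 in liver, 26.6 in lung and 16.6 in kidney, with spleen 8.86-fold over kidney (5.32 to 15.6) and 1.57-fold over brain (1.17 to 2.10). With total reads spleen over kidney was 5.65-fold, and brain led with 9.33 RPM against 7.38 in spleen. In all 3 common regions of stretch 2, lung was lowest and kidney was not. The range was widest from 22127391 to 22128246, where spleen held 116 normalised reads, liver 109, kidney 48.9, brain 42.9 and lung 9.77, an 11.8-fold difference (6.26 to 24.7). With total reads liver led that region with 8.49 RPM, and spleen over lung was 5.72-fold. Lung was lowest in all 3 by both scalings. Of the 13 common regions of stretch 4, kidney was lowest in 11 and spleen highest in 8. With total reads kidney was lowest in 12 and liver highest in 9. Of the 8 in stretch 5, spleen was highest in 4, liver in 3 and lung in 1, and lung was lowest in 4. With total reads that order changed: liver was highest in 7 and lung in 1, and kidney was lowest in 5, lung in 2 and liver in 1.

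Across the 35 regions, the ratio of the highest library to the lowest had a median of 3.86 (quartiles 2.87 and 4.88), against 2.17 over all common regions. Only 2 regions stayed under 2-fold (5.71%, against 40.6%) and 15 reached 4-fold (42.9%, against 9.76%). These 35 regions, chosen for a peak in every list, were thus uneven between libraries after normalisation. The median of this ratio with total reads was not computed. Over the 64 peak bins, the read counts of the libraries were ranked in much the same way. Spearman's rho ran from 0.738 for kidney and spleen to 0.858 for brain and spleen. The bins share their mappability and their peak status in these correlations, which are a description.

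Kidney was the tissue most often missing from regions that lacked 1 tissue. Of 12 regions with a peak in 4 tissues, 6 lacked it in kidney, where 3.51% of 8329 such regions genome-wide did. Of the rest, 2 lacked it in liver (19.8%), 2 in lung (3.77%), 1 in brain (7.82%) and 1 in spleen (65.1%). Kidney still held 9 to 15 reads in these 6, and 3 of them lay in stretch 1. In the 1 from 21807896 to 21808626, brain held 97 reads, spleen 56, lung 28, liver 25 and kidney 15. From 23626866 to 23627591, inside the bin led by spleen, spleen held 46 reads, liver 20, lung 16, brain 12 and kidney 10. A region without a listed peak is therefore not one without reads.

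Regions with a peak in 1 tissue alone were mostly faint. Of these 35, spleen had 11 (9.17% of 123556 such regions genome-wide), lung 9 (17.6%), liver 6 (17.2%), brain 5 (34.6%) and kidney 4 (21.4%), with medians of 14, 10, 15.5, 12 and 13.5 reads of the tissue that had the peak. One stood out, on chromosome 3 from 96047856 to 96048356, named after its values were seen. It held 96 reads in liver, 13 in lung, 6 in kidney, 5 in brain and 4 in spleen, 7.16-fold over lung (4.0 to 13.9) and 5.35-fold with total reads. The region common to all tissues that starts at 96048966 lies beside it. In spleen, the region from 23662071 to 23662571 held 27 reads against 4 to 8 elsewhere, 5.70-fold over lung (2.52 to 14.5) and 2.76-fold with total reads.

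The reads of the common regions were compact. In a window of 2 kb to both sides of the centre, density in the central 1 kb over that beyond 1 kb had a median of 7.83 in brain (quartiles 2.98 and 16.9), 6.0 in liver, 5.94 in lung, 4.51 in spleen and 4.33 in kidney. Over all common regions these medians were 5.88, 5.17, 5.75, 3.37 and 4.11. The spread between regions was far larger than these differences. In the central 1 kb, reads on the plus strand lay left of the centre in 71.9% (kidney) to 81.4% (brain) of reads and those on the minus strand in 26.9% (brain) to 38.1% (spleen).

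**Figure D4:**
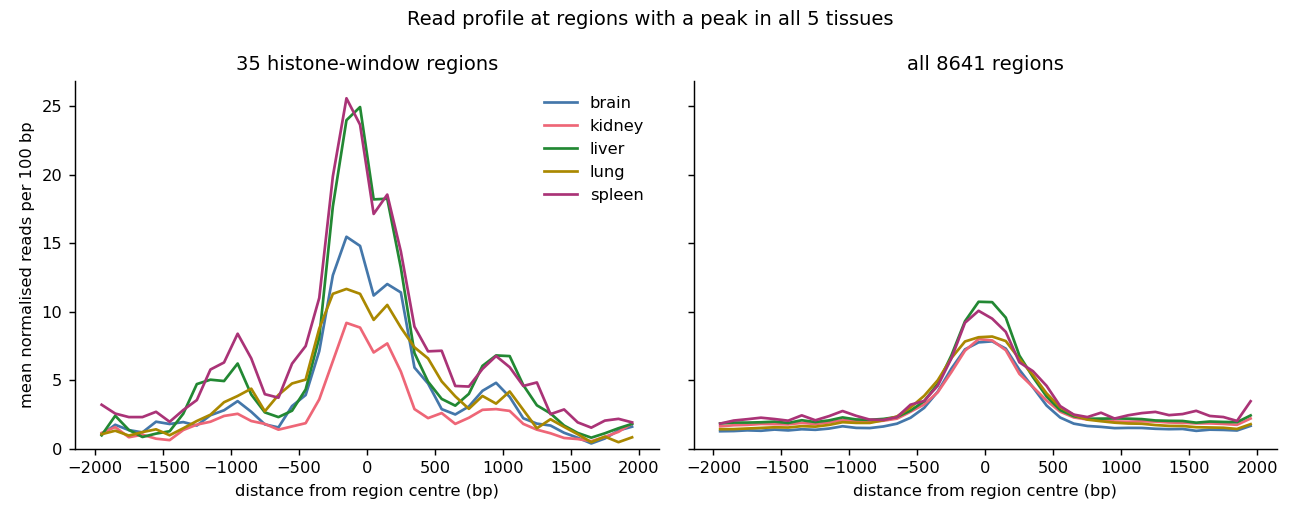
Mean normalised reads per 100 bp (vertical axis) against the distance from the region centre in bp, by library, for the 35 histone-window regions (left) and all 8641 regions with a peak in all 5 tissues (right). On the left spleen and liver are the highest curves and kidney the lowest at the centre, while on the right the 5 curves lie closer together.

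Part of the windows held no reads, and the part of depth and of repeated sequence in this was not tested. No read of any library started in 41.2% of the 100 bp steps, and 22 of the 427 bins held no read at all. Empty runs longer than 1000 bp numbered 110 and covered 351 kb, the longest 36437 bp. They also lay beside strong regions: on chromosome 3, no read started from 96074233 to 96077420, just after the region with the most reads, or from 96049475 to 96051258. An empty run lay within 1 kb of 3 of the 35 common regions. The treatment of reads with several hits in the genome is not stated in these sources, and histone genes are near-identical copies, so reads of such copies may be missing or placed in the wrong copy. Reads that repeated the position and strand of another made up 13.5% of window reads in liver, 11.2% in brain, 9.15% in lung, 8.20% in spleen and 5.01% in kidney, against 8.87%, 7.12%, 7.16%, 8.52% and 4.51% of the whole libraries. With repeats removed, spleen was highest in 25 of the 35 regions (background 18.4% of common regions) and liver in 5 (29.2%). The median log2 difference from all common regions was then 0.80 in spleen and 0.41 in liver, against 0.74 and 0.51 with repeats kept.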

How the data were processed

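Per the labels' protocols, tissue was fixed with 1% formaldehyde for 10 min, chromatin was sheared to 0.2 to 0.8 kb and 10 µg of antibody was used. The authors deposited for each library aligned reads (position and strand) and peak positions without score. Bowtie was used per the submitters' processing notes. The labels read here state no version or settings for it, no peak caller and no build. No input library was used here.

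Reads of 34 to 36 bases were counted at their 5′ end. Fold intervals are exact conditional binomial and shares have exact binomial intervals. Positions are named by rule: the 12 bins and the 12 common regions with the highest mean normalised count, and up to 3 bins per tissue with the largest fold and at least 40 reads. Other positions were chosen after their values were seen. Comparisons at common regions, by stretch and with RefSeq were added after the data were seen. The windows and lists were chosen with earlier results of these data known. Only the call of bins led by a tissue was tried on simulated counts. These had counting error alone and the same background in every library, so they do not cover the higher spleen background. Computation used SciPy 1.17.1, pandas 2.3.3 and NumPy 2.4.6 under Python 3.11.15, and plots Matplotlib 3.10.9.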

Additional observations from a re-analysis of the deposited data

How the results depend on the processing

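No paired analysis was possible because each tissue had 1 library, and for the same reason no library could be left out. Of 209 recomputed values, 147 stayed within their interval or within 1.5 times and 62 did not. The cause was not tested for any of them. With repeated reads removed, the windows took 891 RPM in lung, 889 in liver and 772 in brain. The ratio of peak bins to the others was then 9.95 in brain, 7.78 in liver and 8.73 in lung. Liver was highest in 5 common regions of the windows (background 29.2%). With total reads, spleen led 7 bins and liver 1, and common regions were highest in brain in 7, liver in 19, lung in 7 and spleen in 2, and lowest in brain in 0 and spleen in 3. With background subtracted, spleen led 38 bins, kidney 1 and liver 1. Spleen led 19 bins at 40 reads or more, 144 at 1.5-fold and 3 at 4-fold. Genome-wide shares of led or high bins were computed only for the main rule and, for led bins, with total reads. Counts of bins under the other rules, here and below, are therefore no result about the windows.

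With bins of 2 kb, spleen led 40 and liver 2, high bins numbered 72 in lung, 55 in spleen, 55 in kidney and 52 in liver, and the ratio was 14.1 in brain, 11.1 in lung, 10.9 in liver, 7.73 in spleen and 6.36 in kidney. With bins of 10 kb, spleen led 50, high bins numbered 23 in brain, 20 in lung, 18 in liver and 15 in kidney, and the ratio was 9.09 in brain, 8.22 in lung, 7.35 in liver, 5.20 in spleen and 4.72 in kidney. High bins numbered 50 in kidney and 61 in lung at 2 times the median, and 10 and 22 at 5 times. Without bins next to a peak bin the ratio was 12.4 in brain, 11.0 in lung, 9.57 in liver, 6.71 in spleen and 6.04 in kidney. On chromosome 13 alone it was 9.90 in brain, 8.51 in lung, 8.0 in liver and 5.04 in kidney. On chromosome 3 alone it was 10.3 in brain, 6.62 in liver, 5.23 in lung, 3.60 in spleen and 3.28 in kidney. Kidney had the lowest ratio of the 5 libraries in each of these settings. Peaks with at least 20 reads gave 62 merged regions, 15 of them in 1 tissue. Bins with under 20 reads in a library were not called for it.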
